A study of Saccharomyces cerevisiae with 17 samples.

Results

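The genes described here are 10 paralogues that encode 4 enzymes of glycolysis in the budding yeast Saccharomyces cerevisiae, out of 7125 features in the table of 17 RNA-seq libraries. They were chosen by name: TDH1, TDH2 and TDH3 for glyceraldehyde-3-phosphate dehydrogenase (GAPDH), ENO1 and ENO2 for enolase, HXK1, HXK2 and GLK1 for the kinases that phosphorylate glucose, and CDC19 and PYK2 for pyruvate kinase. All 10 were measured in every library, and all 10 passed the filter on low values in every comparison. The study asked how phosphate genes are controlled by the 14-3-3 protein Bmh1, by Spl2 and by transcription across the SPL2 promoter. Every strain derives from the laboratory strain BY4741, a haploid of mating type a, and the deletion strains each lack 1 further gene or promoter segment. Cultures grown in 7.2 mM potassium phosphate were washed and then kept for 60 min in medium with 0 mM or 7.2 mM phosphate; whether the final medium at 0 mM held the KCl of the other media is not stated. Experiment 1 comprised a bmh1 deletion at 7.2 mM (1 library), an spl2 deletion at 0 mM (3 libraries) and at 7.2 mM (2 libraries), and BY4741 at 0 mM and at 7.2 mM (3 libraries each). Experiment 2 comprised an rrp6 deletion (2 libraries) and BY4741 (1 library), both at 7.2 mM. Experiment 3 comprised a strain without block P of the SPL2 promoter, called ΔP here, and BY4741 (1 library each), both at 7.2 mM. Whether a deletion strain was 1 clone or several is not given in the sources used here.

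Paralogous glycolytic enzymes catalyse the same step, and in glucose-grown yeast 1 member of each family usually supplies most of the transcript. TDH3, ENO2, HXK2 and CDC19 are known as the abundant forms on glucose, whereas TDH1, HXK1 and GLK1 are known to be induced in stationary phase, under stress or on carbon sources other than glucose. The GAPDH reaction is the step of glycolysis that takes up inorganic phosphate. Hxk2 also takes part in glucose repression, and Pyk2 differs from Cdc19 in not needing the activator fructose bisphosphate.

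The coding sequences of the TDH and ENO paralogues are so alike that short reads can fit more than 1 of them, and the stretches below show examples of where they differ. Sequences were read from RefSeq assembly R64, and each of the 10 genes has 1 coding exon there. The first 90 coding bases of the TDH genes are shown, with capitals where a base differs from TDH3. They lie at chrX:338271-338360 on the plus strand (TDH1), chrX:454592-454681 on the minus strand (TDH2) and chrVII:883721-883810 on the minus strand (TDH3). For enolase the stretch shown is coding bases 277 to 366, with capitals in ENO1 where it differs from ENO2, at chrVII:1001203-1001292 (ENO1) and chrVIII:451603-451692 (ENO2), both on the plus strand. The enolase stretch was chosen as the one of its length, starting at a codon, with the most differences, so it is not typical of the genes.
TDH1: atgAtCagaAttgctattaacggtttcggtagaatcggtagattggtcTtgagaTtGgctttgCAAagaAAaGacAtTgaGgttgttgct
TDH2: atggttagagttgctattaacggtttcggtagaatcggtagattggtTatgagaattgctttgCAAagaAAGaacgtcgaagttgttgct
TDH3: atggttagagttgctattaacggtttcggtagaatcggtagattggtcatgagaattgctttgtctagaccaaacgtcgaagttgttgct
ENO1: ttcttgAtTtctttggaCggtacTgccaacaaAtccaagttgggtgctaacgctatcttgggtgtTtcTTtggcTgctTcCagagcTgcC
ENO2: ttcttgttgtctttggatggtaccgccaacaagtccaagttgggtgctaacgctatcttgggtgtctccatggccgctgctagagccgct

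In these stretches TDH1 differed from TDH3 at 15 of 90 bases, TDH2 at 7, and ENO1 differed from ENO2 at 13, while the first 90 coding bases of the enolase genes were identical. Over the whole coding sequence TDH2 and TDH3 were 95.8% identical, TDH1 and TDH2 90.2%, TDH1 and TDH3 88.9%, and ENO1 and ENO2 94.8%. Windows of 50 bases that occur in both genes of a pair made up 24.4%, 15.7%, 8.84% and 23.6% of all windows, in the same order. For windows of 100 bases the values were 8.22%, 4.56%, 0% and 2.72%. A read that lies wholly within a stretch common to both genes cannot be assigned to 1 gene by its sequence. How such reads were counted is not given in the sources used here, so levels of the TDH and ENO genes are uncertain by an amount that was not measured. HXK1 and HXK2 were 77.7% identical and CDC19 and PYK2 67.1%, with no 50-base window in common, and GLK1 shared none with HXK1 or HXK2, so this limit does not apply to them.

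Promoter windows are shown for 3 genes that rose without phosphate in BY4741, TDH1, HXK1 and GLK1, and for TDH3, the abundant GAPDH gene. Each is 300 bases long and covers 400 to 101 bases before the start codon. Capitals mark 2 motifs, searched on both strands and not overlapping each other: the stress response element AGGGG, which reads CCCCT on the other strand and which the stress factors Msn2 and Msn4 bind, and the E-box CACGTG, which Pho4, the activator of phosphate genes, and other factors can bind. The windows are chrX:337871-338170 on the plus strand (TDH1), chrVI:255150-255449 on the minus strand (HXK1), chrIII:50438-50737 on the plus strand (GLK1) and chrVII:883911-884210 on the minus strand (TDH3).
TDH1: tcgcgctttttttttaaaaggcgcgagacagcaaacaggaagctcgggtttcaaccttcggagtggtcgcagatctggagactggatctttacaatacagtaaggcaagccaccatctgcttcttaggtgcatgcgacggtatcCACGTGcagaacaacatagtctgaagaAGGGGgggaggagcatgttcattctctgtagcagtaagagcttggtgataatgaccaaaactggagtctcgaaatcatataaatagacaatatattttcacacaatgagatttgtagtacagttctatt
HXK1: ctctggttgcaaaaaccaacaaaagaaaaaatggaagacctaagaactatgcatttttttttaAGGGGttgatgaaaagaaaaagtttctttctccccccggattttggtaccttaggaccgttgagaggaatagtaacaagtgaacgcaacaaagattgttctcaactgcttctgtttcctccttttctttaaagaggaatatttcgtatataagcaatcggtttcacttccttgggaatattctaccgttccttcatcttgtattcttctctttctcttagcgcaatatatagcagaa
GLK1: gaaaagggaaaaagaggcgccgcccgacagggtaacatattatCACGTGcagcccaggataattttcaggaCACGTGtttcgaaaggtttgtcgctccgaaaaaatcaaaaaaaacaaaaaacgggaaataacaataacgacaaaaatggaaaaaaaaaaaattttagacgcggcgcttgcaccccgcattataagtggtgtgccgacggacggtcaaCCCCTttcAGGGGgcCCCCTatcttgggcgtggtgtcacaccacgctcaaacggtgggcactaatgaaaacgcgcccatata
TDH3: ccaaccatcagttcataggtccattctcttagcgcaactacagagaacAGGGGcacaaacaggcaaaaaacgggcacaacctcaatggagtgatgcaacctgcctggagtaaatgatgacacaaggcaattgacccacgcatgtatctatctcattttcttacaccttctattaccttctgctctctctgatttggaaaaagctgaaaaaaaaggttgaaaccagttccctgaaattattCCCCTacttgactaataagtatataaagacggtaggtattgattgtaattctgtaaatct

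The GLK1 window held 3 AGGGG and 2 CACGTG motifs, the TDH1 window 1 of each, the HXK1 window 1 AGGGG and the TDH3 window 2 AGGGG. Among the members not shown, PYK2 held 1 of each and CDC19 1 AGGGG, and neither motif occurred in the windows of TDH2, ENO1, ENO2 and HXK2. Of the genes with neither motif, ENO1 rose more without phosphate in BY4741 than HXK1 and GLK1, and TDH2 rose too. Of 6001 yeast windows of the same length and position, 23.5% held AGGGG and 4.55% held CACGTG at least once, and 4.12% held AGGGG at least 2 times. The sequences CTTCC, the core bound by the glycolytic activator Gcr1, and ACCCNNACA, bound by Rap1, occurred in 47% and 3.93% of windows. CTTCC was found in TDH1, TDH2, ENO2, HXK1, CDC19 and PYK2, and ACCCNNACA in none of the 10 windows. These are matches of letters in 1 window per gene, with no measurement of binding. Whether the motifs bear on the changes of these genes was not tested.

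Libraries held 17456154 to 44667485 reads, recovered from deposited values in RPM (reads scaled to a common library total), so that 3 reads corresponded to 0.0672 to 0.172 RPM. The deleted genes followed the labels. In the spl2 deletion SPL2 had 0, 8 and 1 reads at 0 mM and none at 7.2 mM, BMH1 had 46 reads in the bmh1 deletion library, and RRP6 had 0 reads in both rrp6 deletion libraries. SPL2 stood at 33.8 RPM in ΔP and 23.5 RPM in its BY4741 library. Genes specific to mating type a, 5 of 5 listed, summed to 913 to 2061 RPM per library and those of mating type alpha, 3 of 3, to 3.87 to 18.9 RPM. The cultures were measured in bulk, so a change in how many cells express a gene and a change in RNA per cell cannot be told apart.

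Levels of different genes were compared as RPM per kilobase of coding sequence. In BY4741 at 7.2 mM, experiment 1, TDH3 was highest at 16762 ± 1353 RPM per kilobase, followed by ENO2 at 5773 ± 524, CDC19 at 3735 ± 228 and TDH2 at 1828 ± 139 (SD, n = 3). HXK2 stood next at 747 ± 59.5 RPM per kilobase, ENO1 at 190 ± 15.3, GLK1 at 180 ± 22.2, HXK1 at 103 ± 17.0, TDH1 at 90.9 ± 10.7 and PYK2 at 15.3 ± 2.00 (SD, n = 3). The ranges of ENO1 and GLK1 overlapped, as did those of HXK1 and TDH1, and no other neighbours in this order did. Without phosphate the top 5 kept their order, and below them came ENO1 at 546 ± 44.6, GLK1 at 363 ± 16.0, TDH1 at 354 ± 37.5, HXK1 at 205 ± 16.3 and PYK2 at 27.3 ± 1.42 RPM per kilobase (SD, n = 3). There the TDH1 values overlapped those of GLK1 and lay above every HXK1 value.

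**Figure D1:**
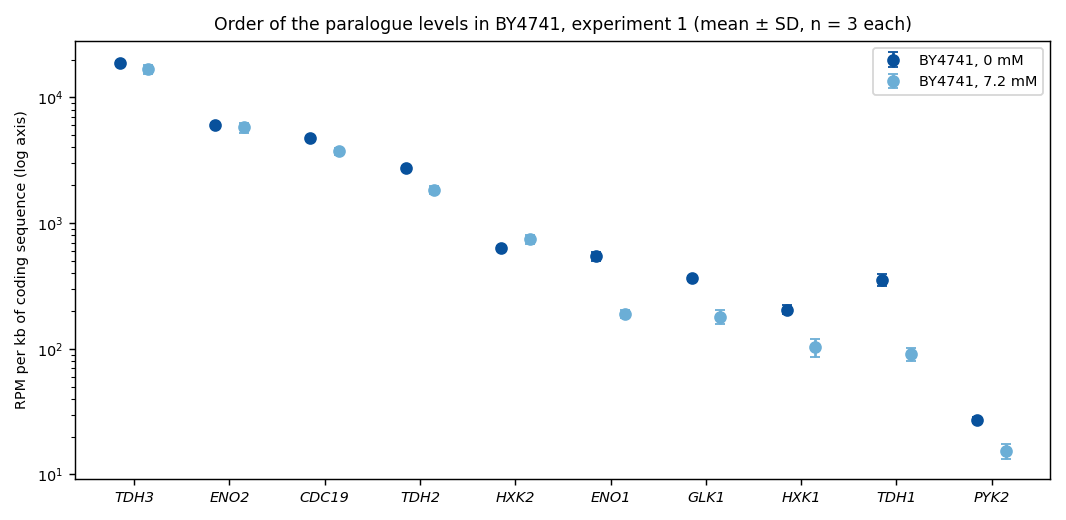
Mean RPM per kilobase of coding sequence (log axis) of the 10 paralogues in BY4741 of experiment 1 at 0 mM (dark) and 7.2 mM (light) phosphate, with SD error bars over 3 libraries each, in descending order at 7.2 mM. ENO1, GLK1, HXK1, TDH1, PYK2 and TDH2 stand higher at 0 mM, and TDH3 and ENO2 differ little between the levels.

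Without phosphate TDH1, the GAPDH gene with the lowest level, rose most in BY4741. TDH1 had 371, 310.5 and 379 RPM in the 3 BY4741 libraries at 0 mM, against 90.7, 101 and 80.2 RPM in the 3 at 7.2 mM. Every library at 0 mM was higher than every library at 7.2 mM, and the means differed 3.89-fold. The log2 fold change of RPM + 1, the scale of all tested changes below, was 1.95 ± 0.0903 (SE; limma adjusted p = 1.44e-10), the 14th highest of 6015 genes tested. TDH2 had 2761, 2607 and 2824 RPM at 0 mM, against 1782, 1981 and 1715 RPM at 7.2 mM. The groups did not overlap, and the log2 fold change was 0.58 ± 0.0649 (SE; limma adjusted p = 4.2e-06). TDH3 had 18447, 18657 and 19682 RPM at 0 mM, against 16186, 18287 and 15763 RPM at 7.2 mM. Its values at 0 mM lay just above the highest value at 7.2 mM, and its log2 fold change was 0.18 ± 0.0762 (SE; limma adjusted p = 0.0483). After TMM scaling, which sets libraries to a common typical gene in place of a common total, TDH3 stood at -0.03 (adjusted p = 0.823), and its call was also lost when library 11 or 13 at 7.2 mM or 14, 16 or 17 at 0 mM was left out (adjusted p = 0.0651 to 0.171).

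Enolase showed the same contrast between a minor and a major gene. ENO1, the minor form, had 772, 655 and 725 RPM in BY4741 at 0 mM, against 259.6, 263 and 226 RPM at 7.2 mM. The groups were far apart, with a 2.88-fold difference of means, and the log2 fold change was 1.52 ± 0.0690 (SE; limma adjusted p = 1.17e-10). ENO2 had 7739, 7770.2 and 8228 RPM at 0 mM, against 7243, 8379 and 7134 RPM at 7.2 mM. These groups overlapped, and the log2 fold change of 0.06 ± 0.0721 (SE) did not pass (limma adjusted p = 0.438); after TMM scaling it was -0.15 (adjusted p = 0.194).

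Among the hexose kinases HXK1 and GLK1 rose and HXK2 fell in BY4741. HXK1 had 272, 314 and 311 RPM at 0 mM, against 134, 178 and 136 RPM at 7.2 mM. GLK1, glucokinase, had 518, 562 and 557 RPM at 0 mM, against 251, 309 and 251 RPM at 7.2 mM. In both genes every library at 0 mM was higher, with means 2.00-fold and 2.02-fold apart and log2 fold changes of 1.0 ± 0.103 and 1.02 ± 0.0752 (SE; limma adjusted p = 1.86e-06 and 4.95e-08). HXK2, the main hexokinase on glucose, had 888, 923 and 953 RPM at 0 mM, against 1013, 1185 and 1074 RPM at 7.2 mM. Every library at 0 mM was lower than every library at 7.2 mM, and its log2 fold change was -0.24 ± 0.0601 (SE; limma adjusted p = 0.0027), or -0.45 after TMM scaling (adjusted p = 4.54e-05).

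Both pyruvate kinase genes rose in BY4741, PYK2 by more. PYK2 had 39.3, 43.6 and 41.5 RPM at 0 mM, against 20.7, 26.6 and 22.6 RPM at 7.2 mM. The groups did not overlap, the means were 1.78-fold apart and the log2 fold change was 0.81 ± 0.0782 (SE; limma adjusted p = 1.01e-06). CDC19, the major form, had 7133, 7075 and 7267 RPM at 0 mM, against 5496, 5999.8 and 5344 RPM at 7.2 mM. Its groups did not overlap either, and it rose by 0.35 ± 0.0617 on the log2 scale (SE; limma adjusted p = 0.000199), a change that did not pass after TMM scaling, at 0.14 (adjusted p = 0.157).

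**Figure D2:**
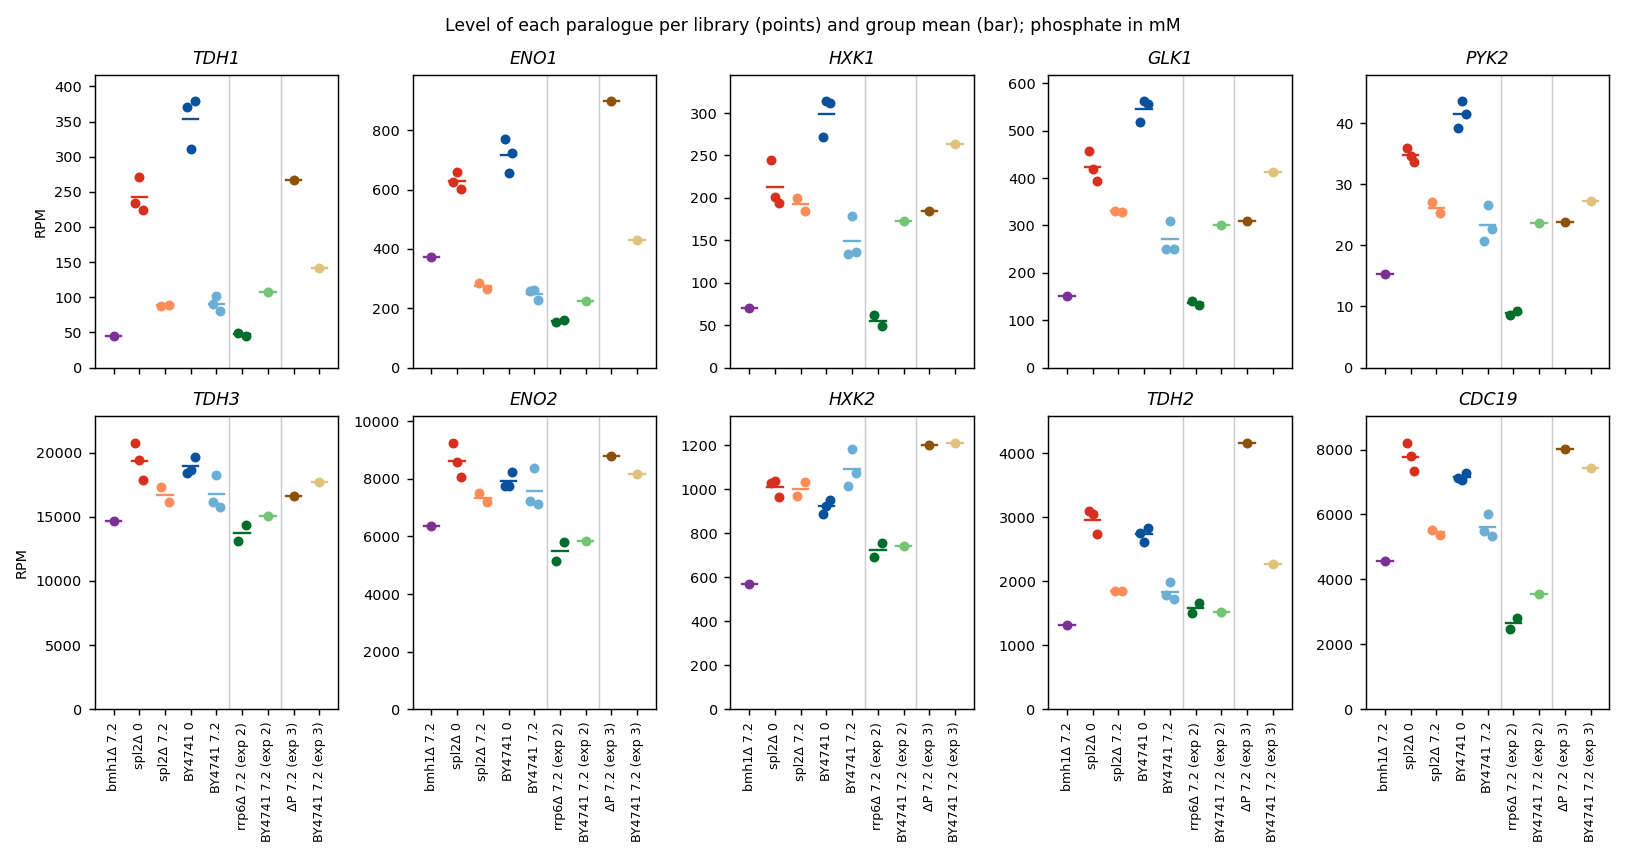
RPM of each paralogue in all 17 libraries (points, linear axes from 0, a scale of its own per gene) with the group mean as a bar; phosphate in mM is part of each group's name, and grey lines separate the 3 experiments. TDH1 sits at 310.5 to 379 RPM in BY4741 at 0 mM and at 80.2 to 101 RPM in BY4741 at 7.2 mM of experiment 1.

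In all, 8 of the 10 genes were higher and 1 was lower at 0 mM in BY4741, where 60.9% of the 6015 genes tested were called higher and 6.68% lower, 67.6% in all. The members' share of higher calls is therefore to be read against a background in which most genes were called. The median of all genes stood at 0.21 on the log2 scale and the median of the 10 members at 0.70. TMM scaling moved the median of all genes to about 0.01 and the split of all calls to 1088 higher and 1226 lower. Measured from the median of all genes, TDH1 lay at 1.74, ENO1 at 1.31, GLK1 at 0.81, HXK1 at 0.79, PYK2 at 0.60, TDH2 at 0.37 and CDC19 at 0.14. TDH3 lay at -0.03, ENO2 at -0.15 and HXK2 at -0.45 on that scale. TDH1, ENO1, HXK1, GLK1 and PYK2 were each above 97% of the genes tested, TDH2 was above 94.7% and HXK2 above 4.34% of them. After TMM scaling TDH1, TDH2, ENO1, HXK1, GLK1 and PYK2 were called higher and HXK2 lower. Per the labels, cultures with and without phosphate can share an overnight parent culture, which the tests do not take into account.

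In the spl2 deletion, 8 of the 10 genes were called higher at 0 mM and none lower, with 57.3% of 6033 genes called higher and 8.75% lower, 66.0% in all (3456 and 528 genes, or 1210 and 1429 after TMM scaling). TDH1 had 235, 271 and 224 RPM in the spl2 deletion at 0 mM, against 87.3 and 89.7 RPM at 7.2 mM, and ENO1 had 626, 659 and 602 RPM against 285 and 264 RPM. Both were again far apart between the phosphate levels, with log2 fold changes of 1.44 ± 0.101 and 1.19 ± 0.0771 (SE; limma adjusted p = 4.88e-08 and 2.16e-08). HXK1 had 245, 201 and 193 RPM at 0 mM, against 199.6 and 185 RPM at 7.2 mM. Its groups overlapped, and the log2 fold change of 0.14 ± 0.115 (SE) did not pass (limma adjusted p = 0.292; -0.09 after TMM scaling). GLK1 had 458, 419 and 393 RPM at 0 mM, against 331 and 329 RPM at 7.2 mM, without overlap, and rose by 0.36 ± 0.0841 on the log2 scale (SE; limma adjusted p = 0.00176). PYK2 stood at 33.6 to 35.9 RPM at 0 mM, against 27.1 and 25.2 RPM at 7.2 mM, and rose by 0.40 ± 0.0874 log2 units (SE; limma adjusted p = 0.00106). The calls of GLK1 and PYK2 did not hold after TMM scaling, at 0.12 and 0.17 (adjusted p = 0.278 and 0.131). HXK2 overlapped between the levels, at 963 to 1036 RPM at 0 mM and 969.9 and 1033 RPM at 7.2 mM, with its log2 fold change at 0.01 ± 0.0672 (SE; limma adjusted p = 0.893), or -0.22 (adjusted p = 0.0128) after TMM scaling.

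The remaining 4 genes, TDH2 and the abundant forms other than HXK2, were called higher in the spl2 deletion at 0 mM. TDH2 rose by 0.68 ± 0.0725 and CDC19 by 0.51 ± 0.0690 on the log2 scale (SE; limma adjusted p = 4.64e-06 and 2.72e-05), and both kept their call after TMM scaling, at 0.45 and 0.28. TDH3, at 0.21 ± 0.0852, and ENO2, at 0.23 ± 0.0806 (SE; limma adjusted p = 0.0419 and 0.0201), lay close to the median of all genes, 0.23. Neither was called after TMM scaling, at -0.03 and -0.00, and both missed the threshold without library 7 or 18 at 7.2 mM or 12 at 0 mM, and TDH3 also without 19 (adjusted p up to 0.24 for TDH3 and 0.11 for ENO2).

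The difference between these responses was tested directly as an interaction, the spl2 deletion minus BY4741. Of the 10 genes, 5 responded less in the spl2 deletion and none more, where 14.5% of 6071 genes passed, 6.8% higher and 7.73% lower. They were HXK1, GLK1, TDH1, PYK2 and ENO1. TDH2, which is not the main GAPDH gene either, was not among them. HXK1 had the largest difference, -0.86 ± 0.154, and GLK1 followed at -0.66 ± 0.113 (SE; limma adjusted p = 0.00245 and 0.00196). TDH1 differed by -0.51 ± 0.135, PYK2 by -0.42 ± 0.117 and ENO1 by -0.33 ± 0.103 (SE; limma adjusted p = 0.0219, 0.028 and 0.0456). The median over all genes was 0.01, and TMM scaling left these 5 calls in place, at -0.35 to -0.89. With no filter on low values ENO1 and PYK2 missed the threshold (limma adjusted p = 0.0678 and 0.0514). HXK1 and GLK1 passed without any 1 of the 11 libraries. TDH1 missed the threshold without BY4741 library 13 or 14 or spl2 deletion library 7 (adjusted p = 0.0513 to 0.0523). PYK2 missed it without BY4741 library 11, 13 or 16 or spl2 deletion library 7, 19 or 20 (adjusted p = 0.0535 to 0.104), and ENO1 without BY4741 library 13, 14 or 17 or spl2 deletion library 7, 12, 19 or 20 (adjusted p = 0.0549 to 0.161). Over all genes the calls fell to 506 when BY4741 library 16 was left out, and to 508 and 537 when spl2 deletion library 7 or 19 was. Of the other genes HXK2 stood at 0.25 ± 0.0901 (SE; limma adjusted p = 0.0723), and it passed in the higher direction with DESeq2 (0.24, adjusted p = 0.0302) and without BY4741 library 11 (0.30, adjusted p = 0.0368). The genes TDH2, TDH3, ENO2 and CDC19 lay between 0.03 and 0.17 (SE 0.0931 to 0.115; adjusted p = 0.262 to 0.897).

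**Figure D3:**
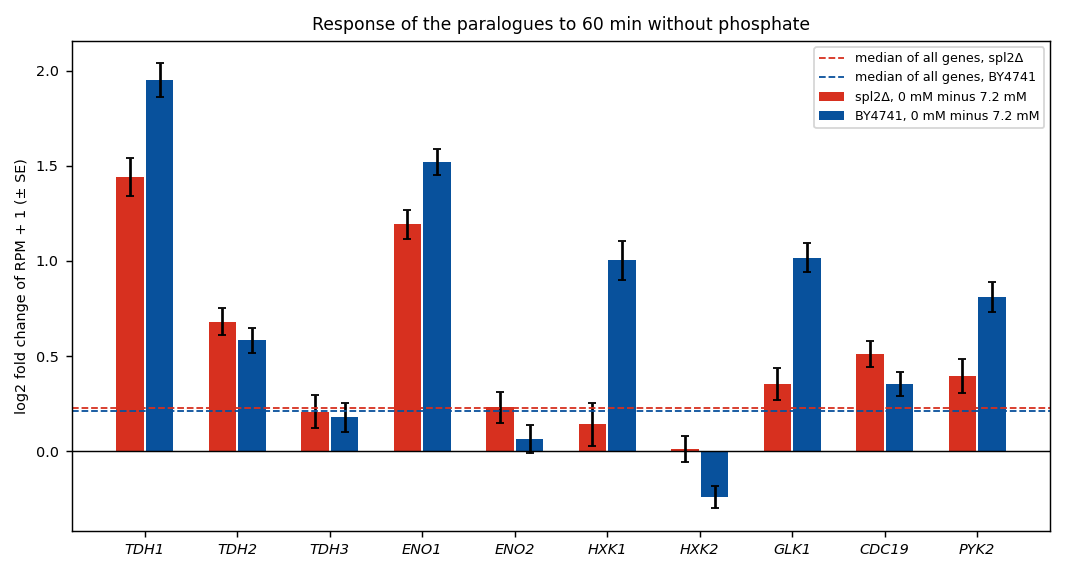
Log2 fold change of RPM + 1 at 0 mM over 7.2 mM phosphate in the spl2 deletion (red) and BY4741 (blue) for the 10 paralogues; error bars are the SE of the limma model and dashed lines the median of all genes in each strain, 0.23 and 0.21. HXK1 stands at 0.14 in the spl2 deletion and 1.0 in BY4741, GLK1 at 0.36 and 1.02.

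The strains were also compared at each phosphate level. At 0 mM, 4 of the 10 genes were lower in the spl2 deletion and none higher, where 7.44% of 6031 genes were called lower and 5.64% higher. TDH1 was lower by 1.45-fold, HXK1 by 1.40-fold, GLK1 by 1.29-fold and PYK2 by 1.19-fold, with no overlap between the libraries of the strains. Their log2 fold changes were -0.54 ± 0.0903, -0.49 ± 0.103, -0.37 ± 0.0752 and -0.25 ± 0.0783 (SE; limma adjusted p = 0.00227, 0.00759, 0.00688 and 0.0478), and the call of PYK2 was lost without any 1 of the 6 libraries (adjusted p = 0.0594 to 0.189). ENO1 overlapped between the strains, at -0.19 ± 0.0689 (SE; limma adjusted p = 0.0846). HXK2, at 0.13 ± 0.0601, and CDC19, at 0.12 ± 0.0618, did not overlap and were above BY4741, but did not pass (SE; limma adjusted p = 0.158 and 0.216). TDH2, TDH3 and ENO2 overlapped, at 0.11, 0.03 and 0.12 (limma adjusted p = 0.253, 0.839 and 0.264). At 7.2 mM none of the 10 genes passed, where 0.5% of 6002 genes did, 0.217% higher and 0.283% lower. HXK1 and GLK1 were higher in both spl2 deletion libraries than in all 3 BY4741 libraries, at 0.37 ± 0.115 and 0.29 ± 0.0841 on the log2 scale (SE; limma adjusted p = 0.171 and 0.148). Both passed when BY4741 library 10, the highest of its group in both genes, was left out (adjusted p = 0.037 and 0.0191), GLK1 passed with DESeq2 (adjusted p = 0.0295), and HXK1 passed when only the groups compared were fitted (adjusted p = 0.0267). ENO1 was also above all 3 BY4741 libraries in both spl2 deletion libraries, at 0.14 ± 0.0771 (SE; limma adjusted p = 0.442). The other 7 genes overlapped, with PYK2 at 0.17, HXK2 at -0.12 and TDH1, TDH2, TDH3, ENO2 and CDC19 between -0.04 and 0.02 (limma adjusted p = 0.421, 0.45 and at least 0.818).

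The makeup of each enzyme was followed as the share of a gene in the summed RPM per kilobase of its family, which does not depend on how libraries are scaled to each other. In hexose kinase HXK2 made up 52.6% ± 0.819 in BY4741 at 0 mM, against 72.6% ± 1.32 at 7.2 mM (SD, n = 3 each). GLK1 made up 30.3% ± 0.324 at 0 mM, against 17.5% ± 0.638 at 7.2 mM, and HXK1 17.1% ± 0.658 against 9.93% ± 0.715 (SD, n = 3 each). In all 3 shares the libraries of the 2 phosphate levels stood apart. In the spl2 deletion HXK2 made up 61.8% ± 1.71 at 0 mM (SD, n = 3), against 66.1% ± 1.52 at 7.2 mM (SD, n = 2). GLK1 made up 25.2% ± 0.631 at 0 mM, against 21.2% ± 0.561 at 7.2 mM, and HXK1 13.0% ± 1.08 against 12.7% ± 0.963 (SD, n = 3 and 2). The shift between the phosphate levels was smaller in this strain for each of these genes, at -4.29, 3.98 and 0.31 percentage points, than in BY4741, at -20.0, 12.8 and 7.16 percentage points.

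The minor forms of GAPDH and enolase also took a larger share at 0 mM. TDH1 made up 1.61% ± 0.147 of GAPDH in BY4741 at 0 mM, against 0.486% ± 0.0253 at 7.2 mM (SD, n = 3 each), and 1.08% ± 0.110 against 0.475% ± 0.0309 in the spl2 deletion (SD, n = 3 and 2). TDH2 made up 12.4% ± 0.360 against 9.79% ± 0.0743 in BY4741 and 13.1% ± 0.267 against 9.89% ± 0.459 in the spl2 deletion. TDH3 made up the rest, 86.0% ± 0.496 against 89.7% ± 0.0859 in BY4741 and 85.8% ± 0.377 against 89.6% ± 0.490 in the spl2 deletion. In both strains the libraries of the 2 phosphate levels did not overlap in any of these shares. ENO1 made up 8.32% ± 0.673 of enolase in BY4741 at 0 mM, against 3.19% ± 0.233 at 7.2 mM, and 6.80% ± 0.411 against 3.60% ± 0.0868 in the spl2 deletion, again without overlap. PYK2 stayed under 1% of pyruvate kinase, at 0.569% ± 0.0326 against 0.408% ± 0.0341 in BY4741 and 0.440% ± 0.00994 against 0.472% ± 0.0148 in the spl2 deletion.

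Over both strains the effect of phosphate was tested on 8 shares and that of the spl2 deletion on the same 8, with exact two-sided permutation tests over 200 arrangements and adjustment over the 16 tests. The shares of TDH1, TDH2, TDH3, ENO1, HXK2 and GLK1 differed between 0 mM and 7.2 mM (exact p = 0.005 each, the smallest the design allows, adjusted p = 0.0133). The mean differences were 0.862, 2.93, -3.80, 4.16, -12.1 and 8.41 percentage points. HXK1, at 3.73 percentage points, and PYK2, at 0.0647, did not pass (exact p = 0.04 and 0.1, adjusted p = 0.08 and 0.16), and HXK2 did not pass without spl2 deletion library 18 (adjusted p = 0.0571). The phosphate test averages over the strains, and PYK2 shifted by 0.162 percentage points in BY4741 and by -0.0322 in the spl2 deletion. HXK1 shifted by 7.16 and 0.308 percentage points in the same order. No share passed for the strain. TDH1 came nearest, lower in the spl2 deletion by a mean of -0.267 percentage points (exact p = 0.025, adjusted p = 0.0571), and passed without BY4741 library 13, 14, 16 or 17 or spl2 deletion library 19 or 20 (adjusted p = 0.0381 to 0.0457), as TDH2 did without spl2 deletion library 7 (adjusted p = 0.0286). This strain test averages over the phosphate levels, and ENO1, HXK1, HXK2, GLK1 and PYK2 differed in opposite directions at 0 mM and 7.2 mM. For HXK2 the spl2 deletion minus BY4741 was 9.19 percentage points at 0 mM and -6.53 at 7.2 mM, and for GLK1 it was -5.13 and 3.73.

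**Figure D4:**
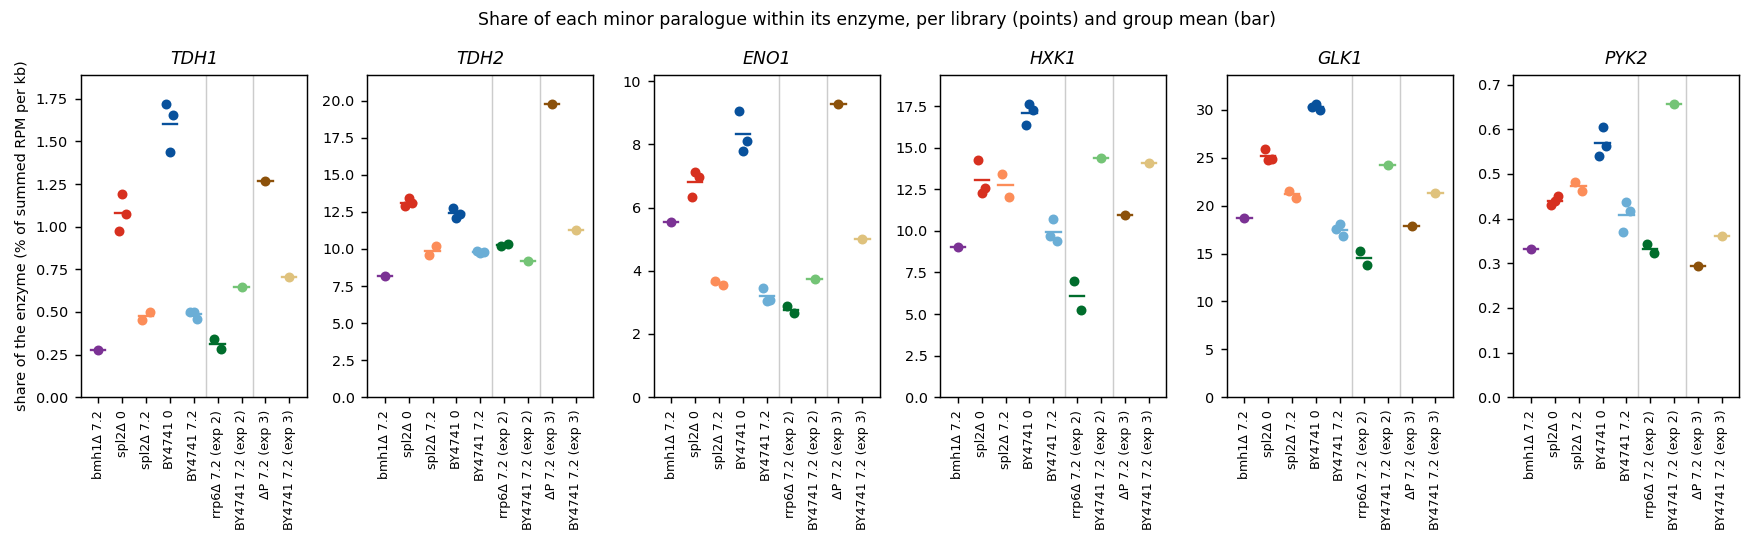
Share of 6 paralogues in the summed RPM per kilobase of their enzyme, in percent, for all 17 libraries (points) with group means (bars); each panel has its own axis from 0, and grey lines separate the experiments. TDH1, ENO1, HXK1 and GLK1 reach 1.61%, 8.32%, 17.1% and 30.3% in BY4741 at 0 mM, above their means in BY4741 at 7.2 mM.

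The bmh1 deletion lacks the main 14-3-3 protein of yeast and was measured in 1 library, which the limma model assumes to vary like the other groups. At 7.2 mM, 1 of the 10 genes was higher than in BY4741 and 8 were lower, where 15.2% of 5987 genes were called higher and 48.8% lower, 64.0% in all. ENO1 was the gene that was higher, at 373 RPM in the bmh1 deletion, against 259.6, 263 and 226 RPM in BY4741, and rose by 0.58 ± 0.0976 on the log2 scale (SE; limma adjusted p = 0.000128). TDH1 had 44.7 RPM in the bmh1 deletion, against 80.2 to 101 RPM in BY4741, and HXK1 had 70.7 RPM against 134 to 178 RPM. HXK2 had 568 RPM in the bmh1 deletion, against 1013 to 1185 RPM in BY4741, and GLK1 had 151 RPM against 251 to 309 RPM. The log2 fold changes of these 4 genes were -1.0 ± 0.128, -1.06 ± 0.145, -0.94 ± 0.0851 and -0.83 ± 0.106 (SE; limma adjusted p = 1.38e-05, 2.43e-05, 1.24e-06 and 1.45e-05). The bmh1 deletion library lay outside the range of the 3 BY4741 libraries in all 10 genes, so this does not set the 4 apart. All 3 hexose kinase genes fell, and HXK2 made up 72.3% of their summed level, against 71.2% to 73.8% in BY4741. PYK2 was at -0.56 ± 0.110 and TDH2 at -0.48 ± 0.0916 (SE; limma adjusted p = 0.000443 and 0.00037). The median of all genes was -0.22 and moved to 0.01 with TMM scaling, which also moved the split of all calls to 1812 higher and 1655 lower. ENO2 was at -0.25 (limma adjusted p = 0.0414) and was not called without BY4741 library 10 (adjusted p = 0.0788). CDC19, also called lower, was at -0.29 ± 0.0867 (SE). Both calls were lost when only the groups compared were fitted. TDH2, ENO2 and CDC19 were not called after TMM scaling, at -0.24, -0.01 and -0.05 (adjusted p = 0.0527, 0.933 and 0.671). TDH3, not called with or without it, was at -0.19 and at 0.05 after TMM scaling. ENO1 made up 5.53% of enolase in the bmh1 deletion, against 3.04% to 3.46% in BY4741.

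Rrp6 is an exonuclease of the nuclear exosome, which trims and degrades RNA in the nucleus. In experiment 2, 6 of the 10 genes were lower in the rrp6 deletion and none higher, where 24.6% of 6039 genes were called lower and 15.9% higher, 40.6% in all. HXK1 had 61.9 and 48.7 RPM in the rrp6 deletion, against 173 RPM in BY4741, and PYK2 had 8.63 and 9.22 RPM against 23.7 RPM. GLK1 had 139.8 and 132 RPM in the rrp6 deletion, against 300.3 RPM in BY4741, and TDH1 had 49.7 and 45.2 RPM against 108 RPM. Both deletion libraries lay far below the BY4741 library in these 4 genes, by 3.12-fold, 2.65-fold, 2.21-fold and 2.28-fold on the means. Their log2 fold changes were -1.64 ± 0.165, -1.32 ± 0.117, -1.14 ± 0.110 and -1.17 ± 0.134 (SE; limma adjusted p = 6.02e-07, 1.37e-07, 3.67e-07 and 2.69e-06). HXK1 ranked 6036th and PYK2 6024th of the 6039 genes, counted from the highest change. ENO1, at 152 and 159 RPM against 226 RPM, fell by 0.54 ± 0.101 on the log2 scale and CDC19 by 0.42 ± 0.0977 (SE; limma adjusted p = 0.000486 and 0.00261). TDH2, TDH3, ENO2 and HXK2 lay between -0.13 and 0.05 (SE 0.0915 to 0.114; limma adjusted p = 0.374 to 0.781). HXK2 made up 77.7% and 81.0% of hexose kinase in the rrp6 deletion, against 61.4% in BY4741. The BY4741 group of this experiment is 1 library, so the spread behind these tests comes mainly from experiment 1.

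The ΔP strain lacks a segment of the SPL2 promoter and was measured in 1 library beside 1 BY4741 library, so its ratios have no replicate check. The 95% intervals in brackets cover counting error only. TDH1 had 266 RPM in ΔP, against 141 RPM in BY4741, a ratio of 1.89 (1.83 to 1.95). TDH2 had 4163 RPM in ΔP, against 2268 RPM in BY4741, a ratio of 1.84 (1.82 to 1.85). ENO1 had 898 RPM in ΔP, against 431 RPM in BY4741, a ratio of 2.08 (2.05 to 2.12). These 3 genes were higher in ΔP, and the hexose kinase genes HXK1 and GLK1 were lower. HXK1 had 185 RPM in ΔP, against 264 RPM in BY4741, a ratio of 0.701 (0.680 to 0.723), and GLK1 had 310 RPM against 412 RPM, a ratio of 0.752 (0.735 to 0.770). PYK2 stood at a ratio of 0.875 (0.801 to 0.955), and TDH3, ENO2, HXK2 and CDC19 between 0.939 and 1.08. Over 5703 features 1.19% differed by 2-fold or more on the RPM + 1 scale, the median log2 ratio was -0.00 and 5% and 95% of features lay below -0.30 and 0.46. ENO1, TDH1 and TDH2 were each above 98% of the features, at log2 ratios of 1.06, 0.91 and 0.88, and HXK1 and GLK1 stood above 1.02% and 2.21% of them, at -0.51 and -0.41. TDH2 made up 19.8% of GAPDH in ΔP, against 11.3% in BY4741, and ENO1 9.28% of enolase against 5.01%.

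**Figure D5:**
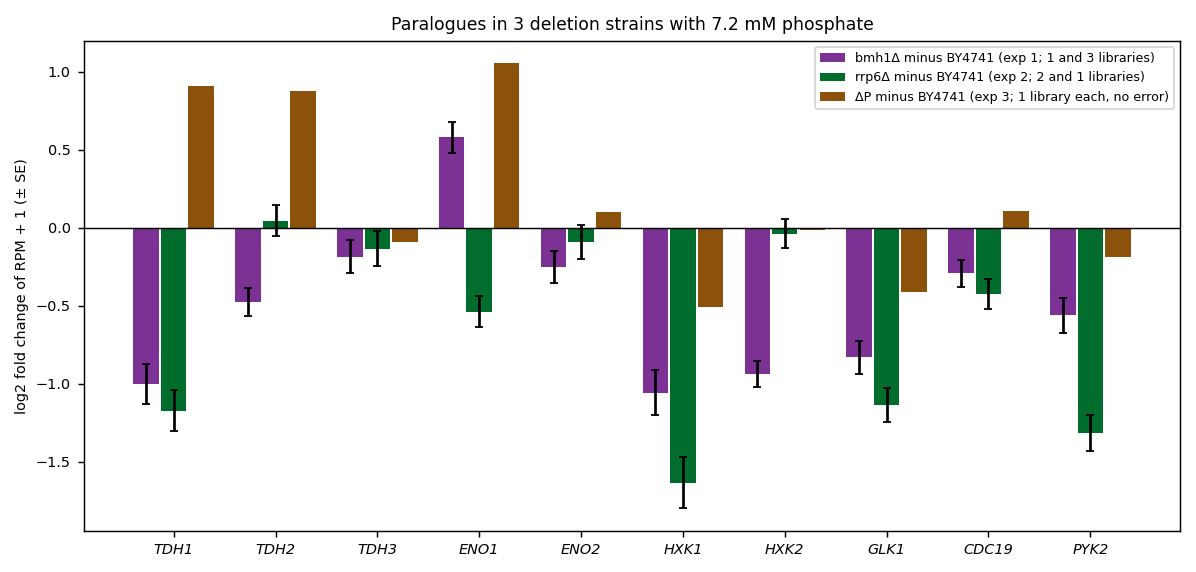
Log2 fold change of RPM + 1 at 7.2 mM phosphate for the 10 paralogues in the bmh1 deletion (purple), the rrp6 deletion (green) and ΔP (brown), each minus BY4741 of its own experiment; error bars are the SE of the limma model, and the ΔP bars, from 1 library per strain, have none. ENO1 is at 0.58 in the bmh1 deletion and 1.06 in ΔP. HXK1, GLK1, PYK2, TDH3 and HXK2 are below 0 in all 3 strains, HXK2 only slightly in the rrp6 deletion and ΔP.

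Deletion strains were set only against BY4741 of their own experiment because the BY4741 cultures at 7.2 mM differed between experiments. CDC19 ranged from 5344 to 5999.8 RPM in experiment 1 and stood at 3541 RPM in experiment 2 and 7429 RPM in experiment 3. TDH1 was at 80.2 to 101, 108 and 141 RPM and ENO1 at 226 to 263, 226 and 431 RPM in the same order. The share of HXK2 in hexose kinase was 71.2% to 73.8%, 61.4% and 64.6%, lowest in experiment 2, the reference of the rrp6 deletion.

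The other genes of the pathway were counted in lists of 38 genes in all. In BY4741 at 0 mM, 29 of the 38 were called higher and 2 lower, against 60.9% higher and 6.68% lower among all genes, with a median log2 fold change of 0.27 for the lists and 0.21 for all genes. GPP2, a glycerol-3-phosphatase gene, had 355 RPM at 0 mM, against 131 RPM at 7.2 mM, and rose by 1.43 on the log2 scale (limma adjusted p = 1.49e-11). TYE7, a transcription factor gene of glycolytic promoters, rose by 1.01 and GPM2, a minor phosphoglycerate mutase paralogue, by 0.97 (limma adjusted p = 2.23e-08 and 9.55e-09). ERR3, an enolase-related gene with near-identical copies, had 6.73 RPM at 0 mM, against 2.06 RPM at 7.2 mM, and its reads are uncertain for that reason. Of the genes of single-gene or subunit steps 5 of 7 were called higher, with a median of 0.26, among them PGK1 (phosphoglycerate kinase) at 0.31, PFK2 (a phosphofructokinase subunit) at 0.29 and PGI1 (phosphoglucose isomerase) at 0.28. In the spl2 deletion at 0 mM, 25 of the 38 were called higher and none lower, against 57.3% higher and 8.75% lower (66.0% in all) among all genes, with a median of 0.32 against 0.23 for all genes. PFK27, which makes the sugar phosphate that activates phosphofructokinase, rose by 1.03 there and by 0.68 in BY4741, and the interaction for it was 0.35 ± 0.106 (SE; limma adjusted p = 0.0396). The interaction passed for 3 of the 38 in the higher and 2 in the lower direction, where 6.8% and 7.73% of all genes passed (14.5% in all), a share near the background. The phosphofructokinase subunit genes PFK1 and PFK2 responded more in the spl2 deletion, by 0.29 and 0.31, and GPM2 and EMI2, the paralogue of GLK1, responded less, by -0.55 and -0.44.

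Between strains at 0 mM, 3 of the 38 genes were higher and 5 lower in the spl2 deletion, against 5.64% higher and 7.44% lower among all genes (13.1% in all). ERR3, whose reads are uncertain, stood at -0.65, GPM2 at -0.42, PFK2 at 0.23 and PFK1 at 0.20 (limma adjusted p = 0.00859, 0.000845, 0.0104 and 0.0240). At 7.2 mM none of 37 tested passed, against 0.5% of all genes. In the bmh1 deletion 3 of 37 were higher and 23 lower, against 15.2% higher and 48.8% lower among all genes (64.0% in all), with a median of -0.29 against -0.22 for all genes. Of the 8 fermentation genes 7 were lower, beside that background of 48.8%, with the pyruvate decarboxylase gene PDC5 at -0.84 and the alcohol dehydrogenase gene ADH3 at -0.68. In the rrp6 deletion 7 of 36 were higher and 13 lower, against 15.9% higher and 24.6% lower among all genes (40.6% in all), with a median of -0.15 against -0.08 for all genes. PDC6, a minor pyruvate decarboxylase gene, had 23.2 RPM in the rrp6 deletion, against 2.00 RPM in BY4741, and rose by 3.01 on the log2 scale (limma adjusted p = 3.98e-11). ADH2, the glucose-repressed alcohol dehydrogenase gene, rose by 0.98 and MIG3, a gene of glucose repression, by 0.99 there (limma adjusted p = 3.86e-07 and 3.4e-07). EMI2 fell by 0.74 in the rrp6 deletion, and GPD1, a glycerol-3-phosphate dehydrogenase gene, by 0.71.

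As a description, the features whose log2(RPM + 1) over the 12 libraries of experiment 1 ran most like each member were listed among 5351 features with a mean of at least 10 RPM. The libraries fall into groups that the members' levels follow, so the points are not independent. TDH2 and CDC19 were each other's nearest feature (Pearson r = 0.993). GLK1 ran most like DCS1 (r = 0.995), PGM2 (0.995), a phosphoglucomutase gene, and UBI4 (0.993), a polyubiquitin gene. HXK1 ran most like TPS1 (0.988), a trehalose synthase subunit gene, and GLK1 (0.985), and PYK2 like TPK2 (0.995), DCS1 (0.992) and GLK1 (0.990). ENO1 ran most like PHM8 (0.980), a phosphatase gene of the phosphate response, GPP2 (0.979) and DDP1 (0.978), and TDH1 like SFK1 (0.991). The enolase genes ENO1 and ENO2 were not near each other by this measure (r = 0.530).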

How the data were processed

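RNA was measured in 17 libraries from 3 experiments, prepared per the labels' protocols with a stranded kit and PCR. The values are RPM, deposited by the authors for 7125 features in 1 table. The aligner, counter, genome build and strand use are unknown (not given in the sources used here), and 1 line of the table is not used here. RPM steps gave whole reads for 100% of values (tolerance 0.001 reads), so reads were recovered for alternative tests. Groups followed the sample labels; for the spl2 deletion the series text gives 3 cultures with phosphate and 2 without, the labels 2 and 3. The series text calls the cultures independent. Replicates differed by more than sampling noise in all 11 pairs (chi-square per gene, averaged, 3.83 to 26.9).

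Comparisons used limma 3.58.1 under R 4.3.3, with its trend option, on log2(RPM + 1), for features with at least 1 RPM in as many libraries as the smaller group and in no fewer than 2. P-values were adjusted by Benjamini-Hochberg over all features tested, with a threshold of 0.05. Experiment 1 entered 1 model (12 libraries), and the rrp6 comparison a model of experiments 1 and 2. The pseudocount understates changes of low genes; plain folds divide mean RPM values. Shares used coding lengths from RefSeq R64 and exact permutation tests, and ΔP ratios exact 95% intervals, which cover counting error only because PCR copies are not independent. Self-tests on simulated data, in which few genes changed and in either direction, checked the fit but could not test the scaling of libraries. Alternatives were TMM scaling, pseudocounts of 0.5 and 5, no filter, edgeR 4.0.16 and DESeq2 1.42.0 on recovered reads, fitting only the groups compared, and leaving out 1 library at a time. Only libraries of groups with more than 1 library were left out. The bmh1 deletion library and the BY4741 library of experiment 2 therefore always stayed in. Groups share no replicate numbers, so no pairing was used. The members and lists were chosen with earlier results of these data known. The text names the 10 members in each comparison and up to 3 genes per list, taken in order of the size of change among those that passed.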

Additional observations from a re-analysis of the deposited data

Results flagged for a closer look

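The phosphate response of 5 of the 10 genes differed between the spl2 deletion and BY4741 in the test of the difference itself (limma interaction, spl2 deletion minus BY4741, log2 scale). The difference was -0.86 for HXK1, -0.66 for GLK1, -0.51 for TDH1, -0.42 for PYK2 and -0.33 for ENO1, each a smaller rise in the spl2 deletion. The calls of HXK1 and GLK1 held whichever single library was left out, and those of TDH1, PYK2 and ENO1 did not. HXK1 had 193 to 245 RPM in the spl2 deletion at 0 mM and 185 to 199.6 RPM at 7.2 mM, where BY4741 had 272 to 314 and 134 to 178 RPM. The strains' HXK1 and GLK1 levels thus stood apart in opposite directions at the 2 phosphate levels, although the difference at 7.2 mM did not pass alone. Of all genes tested 14.5% passed the same interaction.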

How the results depend on the processing

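No paired analysis was possible because the groups share no replicate numbers. Of the called member changes, 431 of the values under alternatives kept direction and call, 60 kept direction only and 8 changed sign. Of those not called, 334 stayed so in the same direction, 6 gained a call (HXK2 in the interaction, HXK1 and GLK1 in the spl2 deletion at 7.2 mM) and 31 changed sign. The number of genes called for the phosphate response of BY4741 was 2314 with TMM scaling, 2295 with edgeR and 2188 with DESeq2, and for that of the spl2 deletion 2639 with TMM scaling and 2549 with DESeq2. For the spl2 deletion minus BY4741 at 7.2 mM it was 112 with DESeq2 and 81 when only the compared groups were fitted. Leaving out 1 library at a time gave 506 to 1080 genes for the interaction, 16 to 65 for the spl2 deletion at 7.2 mM and 228 to 914 for it at 0 mM. It gave 51 genes at 7.2 mM without BY4741 library 10, 16 without BY4741 library 13, 17 with spl2 deletion library 7 removed and 65 with library 18 removed. At 0 mM it gave 369 and 228 genes without BY4741 libraries 14 and 16, and 282 and 474 without spl2 deletion libraries 19 and 20.

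With TMM scaling, edgeR and DESeq2, TDH3 changed sign in the phosphate response of BY4741 (-0.033, -0.034 and -0.035) and of the spl2 deletion (-0.028, -0.026 and -0.021). ENO2 did so in BY4741 (-0.148, -0.150 and -0.151) and, with TMM scaling and edgeR, in the spl2 deletion (-0.0049 and -0.0022). In the spl2 deletion HXK1 (-0.094, -0.087 and -0.081) and HXK2 (-0.224, -0.223 and -0.218) did so too. TDH3 also changed sign in the spl2 deletion at 7.2 mM (0.024, 0.025 and 0.026) and in the bmh1 deletion (0.052, 0.050143 and 0.050188). These 3 settings scale libraries to a typical gene rather than to the total. With no filter on low values, TDH3 lost its call in the phosphate response of BY4741 and of the spl2 deletion. So did ENO1 and PYK2 in the interaction, PYK2 between the strains at 0 mM and ENO2 in the bmh1 deletion.

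Small changes also turned when 1 library was left out, with ranges of -0.034 to 0.056 for the phosphate response of HXK2 in the spl2 deletion and -0.036 to 0.085 for the interaction of TDH3. At 7.2 mM the spl2 deletion minus BY4741 ranged from -0.115 to 0.053 for TDH1, -0.029 to 0.075 for TDH2, -0.053 to 0.065 for TDH3, -0.084 to 0.032 for ENO2 and -0.075 to 0.0087 for CDC19. The same difference at 0 mM ranged from -0.024 to 0.085 for TDH3. For the rrp6 deletion the ranges were -0.024 to 0.116 for TDH2 and -0.102 to 0.029 for HXK2. The shares, in percentage points, ranged from -12.7 to -11.6 for the phosphate effect on HXK2. For the strain effect they ranged from -0.309 to -0.239 for TDH1, 0.252 to 0.577 for TDH2 and -0.321 to 0.026 for TDH3. The causes of these changes were not tested. The depth limits PYK2 most among the members, with a lowest count of 161 reads, in the rrp6 deletion.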
